A study of Mus musculus with 9 samples.

Results

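The genes of the mitochondrial ribosomal proteins were followed in 9 mouse hearts, in tissue of the peri-infarct region, which borders the scar. Members were all genes whose annotated symbol is Mrpl or Mrps followed by a number, with pseudogenes left out, and 76 of the 19505 genes measured met this rule. Each of the 76 had 1 row in the table. Of these, 50 encode proteins of the large ribosomal subunit, 25 proteins of the small subunit, and Mrps36, despite its symbol, a component of the 2-oxoglutarate dehydrogenase complex. All groups shared sex, strain and injury: the mice were SCID females (no functional T or B lymphocytes) aged 80 to 100 days, infarcted by ligation of the left anterior descending artery. Tissue was taken 4 weeks after infarction from 3 hearts injected with iCM-Ex, exosomes precipitated from cardiomyocytes differentiated from induced pluripotent stem cells, from 3 hearts injected with such cardiomyocytes themselves (iCM) and from 3 hearts injected with saline. Each heart is labelled as a biological replicate and was measured on its own Clariom S array, a whole-transcriptome array with biotin-labelled cDNA. For the stem cells no species, and for cells and exosomes no dose, is given in the sources used here.

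Mitochondrial ribosomes translate the few messenger RNAs encoded in mitochondrial DNA, all of which specify core subunits of the respiratory chain and ATP synthase. Their RNAs come from mitochondrial DNA, whereas every protein is encoded in the nucleus, made in the cytosol and imported. Some of the proteins have counterparts in the bacterial ribosome and others occur only in mitochondria. The heart, which depends on oxidative phosphorylation, is rich in mitochondria.

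Values are log2 signals of 1 probe set per gene, so signals of different genes are not comparable as amounts, and all differences below are between groups for the same gene. Because whole tissue was measured, fewer cells of a type and less RNA per cell cannot be told apart. Control separation, the median positive control signal minus the median negative one, was 3.63 to 4.01 on iCM-Ex arrays, 2.47 to 3.21 on iCM arrays and 3.26 to 3.56 on saline arrays, without overlap between the groups. Group and control separation can therefore not be told apart, also in the fits below that hold control separation as a covariate. Over all arrays, 57 of the 76 genes correlated positively with control separation (median r of 0.46 over the 76). Cardiomyocyte markers were high on all arrays (list means 16.1 to 18.1 over 9 markers). Of 8 lung markers, all had a higher mean in iCM than in saline. Their mean signal was 12.46 in iCM replicate 1, while iCM-Ex replicate 3 had 9.04 and the other arrays 4.37 to 6.26. The mean of 8 skeletal muscle markers was 13.29 in iCM replicate 2 and at least 5 units lower elsewhere, and that of 7 fat markers was 8.77 in iCM replicate 2 and 4.23 to 5.61 elsewhere. The part of these transcripts in the results below was not tested, and counts are also given without these 3 arrays. The negative controls had median signals of 4.76 to 5.56 on the arrays. Mean signals of Mrpl43 and Mrpl54 lay below them in iCM and saline, and that of Mrpl36 in iCM, so changes of these 3 genes are poorly measured.

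Averaged over the 76 genes, the arrays had signals of 8.52, 9.37 and 9.39 in iCM-Ex, 8.15, 8.21 and 8.90 in iCM and 8.62, 8.61 and 8.56 in saline. Saline hearts were close together, while iCM-Ex replicates 2 and 3 lay above every other array, iCM replicates 1 and 2 below every other array, and the remaining array of each treated group apart from its own group. iCM-Ex replicate 1 had the lowest signal of its group for 68 of the 76 genes (89.5%, against 36.7% of all genes). iCM replicate 3 had the highest of its group for 57 (75% against 33% of all genes). Nuclear genes of the respiratory chain and ATP synthase, 85 in number, split the treated hearts the same way, with mean signals of 13.31, 14.47 and 14.48 in iCM-Ex and 12.80, 12.87 and 14.41 in iCM, against 13.55, 13.32 and 13.04 in saline. Cytosolic ribosomal protein genes, 57 in number, had means of 14.59, 15.36 and 15.50 in iCM-Ex, 13.86, 13.33 and 13.25 in iCM and 12.56, 13.20 and 13.74 in saline, so that all iCM-Ex arrays lay above the other 6. The 9 cardiomyocyte markers had a mean of 18.07 in iCM replicate 3, against 16.88 and 16.14 in the other iCM hearts. This mean was 17.01, 17.26 and 17.05 in iCM-Ex and 17.61, 17.54 and 16.87 in saline. Of these markers, 8 had a lower and 1 a higher mean in iCM than in saline, and 5 a lower and 4 a higher one in iCM-Ex. Smooth muscle markers, 4 in number, had a mean of 12.56 in iCM-Ex replicate 1, against 10.34 and 10.33 in the other iCM-Ex hearts. Their list means were 11.20, 9.29 and 8.17 in iCM and 9.40, 10.06 and 11.23 in saline. All 7 fibroblast markers had a lower mean in iCM than in saline and all 7 a higher mean in iCM-Ex than in iCM. Their list means were 16.14, 15.62 and 15.12 in iCM-Ex, 15.42, 14.25 and 12.95 in iCM and 14.28, 16.10 and 15.48 in saline. All 5 macrophage markers had a higher mean in iCM-Ex than in saline, with list means of 10.94, 11.53 and 11.51 in iCM-Ex, 10.71, 11.01 and 9.68 in iCM and 8.84, 10.35 and 11.61 in saline. Of 6 endothelial markers, 5 had a lower mean in iCM-Ex than in saline, 3 of them without overlap (9.53% of all genes were lower without overlap). The endothelial list means were 10.04, 11.12 and 10.90 in iCM-Ex, 11.49, 10.55 and 11.28 in iCM and 11.21, 11.42 and 11.58 in saline. Alas2, the 1 red blood cell marker measured of 4, was at 7.67, 12.87 and 9.95 in iCM-Ex, 6.83, 9.68 and 7.07 in iCM and 5.86, 6.77 and 7.83 in saline. The part of these cell types in the results was not tested.

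**Figure D1:**
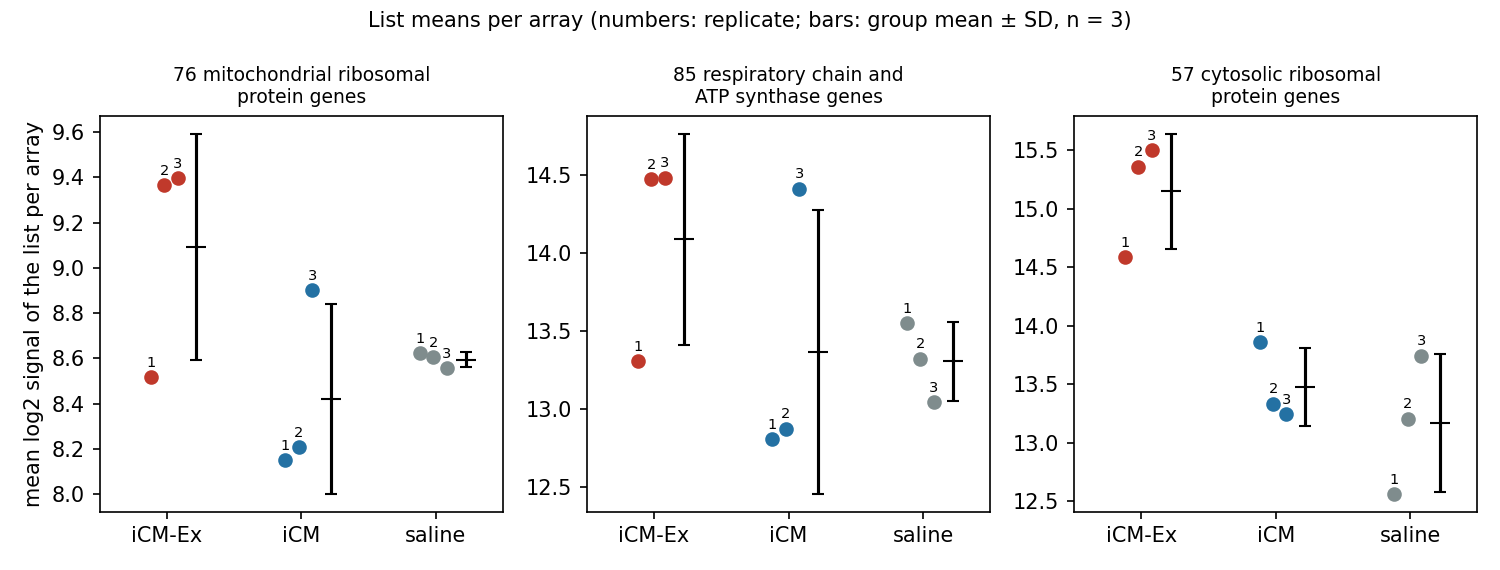
Mean log2 signal of 3 gene lists on each array (vertical axis) by group (horizontal axis). Points are arrays with their replicate number, and bars are the group mean with the SD of 3 arrays. The 76 mitochondrial ribosomal protein genes averaged 8.52 to 9.39 on iCM-Ex arrays, 8.15 to 8.90 on iCM arrays and 8.56 to 8.62 on saline arrays.

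Of the 76 genes, 8 passed an adjusted p of 0.05 in a limma comparison of a pair of groups or in the F test over all groups, and 68 in none of these. Mrpl34 passed in the F test alone, and the other 7 in a comparison of a pair. They were Mrps24 and Mrps26, higher in both treated groups than in saline, Mrpl33, highest in iCM-Ex, and Mrpl34, Mrpl21, Mrps11, Mrps15 and Mrps2, whose means were lowest in iCM. For Mrps2 the means of iCM and iCM-Ex were close, at 7.57 and 7.62, against 9.52 in saline. P-values were adjusted over all 19505 genes. A moderated F test over the group means called 7 of the 76 genes (9.21%, against 3.32% of all genes), namely all of these except Mrps15. Without iCM-Ex replicate 1 it called 16 (3.71% of all genes were called in that fit) and without saline replicate 3 it called 4 (2.59%). Without iCM replicates 1, 2 and 3 it called 3, 1 and 2 (3.52%, 0.749% and 1.69% of all genes). Leaving out saline replicate 1, it called 2 (2.08% of all genes). It called none without saline replicate 2 (0.22% of all genes) or without iCM-Ex replicates 2 or 3 (0.984% and 0.472%).

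**Figure D2:**
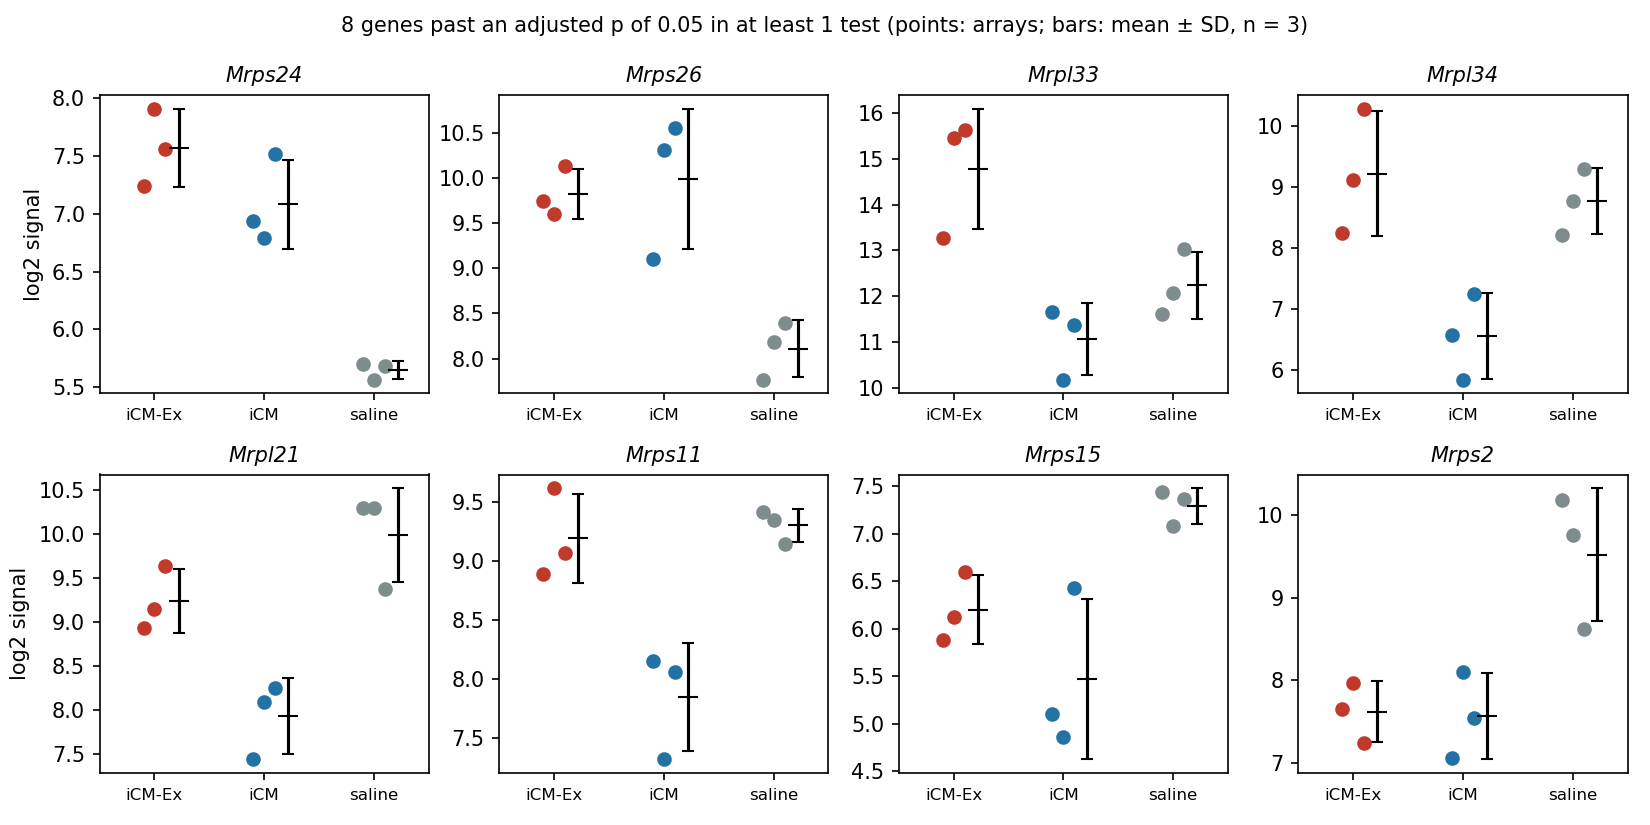
Log2 signal (vertical axes, each panel with its own range) of the 8 genes past the threshold in at least 1 test, by group (horizontal axes). Points are arrays and bars the mean with the SD of 3 arrays. Mrps24 was at 5.56 to 5.70 in saline, below all 6 treated hearts, and Mrps2 was at 8.62 to 10.18 in saline, above all 6.

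Promoters of such genes are known for sites of NRF1, of ETS factors such as GABPA and of YY1, regulators of nuclear genes for mitochondria. RefSeq promoter windows (GRCm38.p6, 250 bases before to 50 after a gene's start) were matched by gene identifier for 67 of the 76 genes, in 73 windows. On either strand, the NRF1 letters, GCGCA and GCGC with any base between them, were in 17.8% of these windows (6.77% of 19143 windows of array genes and 4.6% of all 32851 windows), the ETS letters ACTTCCGG in 16.4% (5.33% and 3.89%) and the YY1 letters AAGATGGCG in 11% (1.91% and 1.4%). For comparison, CCAAT was in 39.7% (37.9% and 37.4%) and TATAAA in 6.85% (12.3% and 13.6%). At least 1 of the first 3 motifs was in 31 of the 73 windows, or 42.5%, against 13% of the windows of array genes. The median GC content was 58.3% in the 73 windows and 57% in those of array genes. These are matches of letters, not evidence of binding. Of the 8 genes past the threshold, 4 had such a match, and their windows are shown because they hold 1 or 2 of the motifs in genes that differed between the groups. Each runs 5′ to 3′ on the gene's strand, with matches to the NRF1, ETS and YY1 letters in capitals.
Mrps24, chr11:5707652-5707951, minus strand: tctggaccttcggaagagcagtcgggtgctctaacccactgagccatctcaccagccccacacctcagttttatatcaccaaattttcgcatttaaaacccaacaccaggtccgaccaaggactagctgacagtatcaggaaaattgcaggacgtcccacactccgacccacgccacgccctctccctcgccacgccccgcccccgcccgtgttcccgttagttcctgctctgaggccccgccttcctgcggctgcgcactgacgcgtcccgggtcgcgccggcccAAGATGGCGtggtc
Mrps26, chr2:130563507-130563806, plus strand: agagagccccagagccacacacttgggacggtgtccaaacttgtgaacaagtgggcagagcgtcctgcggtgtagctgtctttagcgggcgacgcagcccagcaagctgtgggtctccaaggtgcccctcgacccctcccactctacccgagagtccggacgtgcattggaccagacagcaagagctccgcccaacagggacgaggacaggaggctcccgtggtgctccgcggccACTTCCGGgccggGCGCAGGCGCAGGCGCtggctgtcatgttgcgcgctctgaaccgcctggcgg
Mrpl33, chr5:31613701-31614000, plus strand: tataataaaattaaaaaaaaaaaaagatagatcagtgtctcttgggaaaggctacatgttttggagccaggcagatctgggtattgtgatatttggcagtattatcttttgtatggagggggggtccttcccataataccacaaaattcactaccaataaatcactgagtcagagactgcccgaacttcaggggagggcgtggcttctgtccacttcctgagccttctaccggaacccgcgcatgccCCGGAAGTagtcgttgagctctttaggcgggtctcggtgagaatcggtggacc
Mrps11, chr7:78782881-78783180, plus strand: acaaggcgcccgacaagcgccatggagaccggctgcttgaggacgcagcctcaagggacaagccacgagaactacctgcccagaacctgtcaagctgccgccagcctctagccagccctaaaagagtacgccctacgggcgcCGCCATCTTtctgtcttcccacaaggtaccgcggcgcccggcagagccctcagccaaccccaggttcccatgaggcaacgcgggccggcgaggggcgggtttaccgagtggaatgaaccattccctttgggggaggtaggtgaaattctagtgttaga
The windows of Mrps24 and Mrps11 hold the YY1 letters, that of Mrpl33 the ETS letters, and that of Mrps26 the ETS letters and 2 overlapping NRF1 matches. The other 4, Mrpl34, Mrpl21, Mrps15 and Mrps2, had a window with no match.

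Hearts given iCM-Ex were first set against hearts given saline, to see what followed injection of exosomes. Of the 76 genes, 56 had a higher mean in iCM-Ex and 20 a lower one, with a median difference of 0.63 (log2) against 0.04 over all genes. Arrays of the groups did not overlap for 18 genes that were higher (23.7%, against 12.2% of all genes) and for 4 that were lower (5.26%, against 9.53%). By limma 1 gene rose (0.22% of all genes did) and 0 fell (0.128% of all genes), with 21 higher and 3 lower at an unadjusted p under 0.05 (8.33% and 6.91% of all genes). The number with a higher mean was 52 to 58 when any array was left out and 52 when all 3 arrays with lung, muscle or fat transcripts were. It was 51 when control separation was a covariate.

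Mrps24, a small subunit protein whose bacterial counterpart lies where messenger RNA enters the ribosome, was the gene that rose. Its signal was 7.24, 7.91 and 7.56 in iCM-Ex hearts, against 5.70, 5.56 and 5.68 in saline hearts. Its lowest iCM-Ex value was above its highest saline value by far more than either group's spread. It rose by 1.92 ± 0.29 (log2, SE; 7.57 ± 0.34 against 5.65 ± 0.07, SD, n = 3 each), or 3.79-fold (limma adjusted p = 0.0374). The limma adjusted p was 0.0929 and 0.183 without saline replicates 1 and 2, 0.0506, 0.0524 and 0.0532 without iCM replicates 1, 2 and 3, 0.106 and 0.202 without iCM-Ex replicates 2 and 3, and 0.361 without the 3 arrays with other tissues' transcripts, while the difference stayed between 1.70 and 2.09 under every alternative run. Its saline signals lay just above the negative controls, so the size of the rise is uncertain. Under the variance trend the limma adjusted p of Mrps24 was 0.0547 and with control separation as covariate 0.0928. Without iCM-Ex replicate 1 limma called 3 of the 76 genes (0.359% of all genes) and without saline replicate 3 it called 2 (0.836% of all genes).

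The other 7 of the 8 largest increases did not pass the threshold. Mrpl33, a small protein of the large subunit, was at 13.27, 15.45 and 15.62 in iCM-Ex, against 11.61, 12.07 and 13.03 in saline, a difference of 2.54 ± 0.65 (limma adjusted p = 0.114). All its iCM-Ex arrays were above all saline arrays, but replicate 1 exceeded the highest saline heart by little. Mrpl27, whose bacterial counterpart reaches the site of peptide bond formation, was at 10.90, 12.62 and 11.97 against 9.01, 9.69 and 10.37 (difference 2.14 ± 0.52, limma adjusted p = 0.102). Mrpl13, a large subunit protein with a bacterial counterpart, was at 11.63, 12.02 and 12.45 in iCM-Ex, against 9.73, 10.30 and 10.23 in saline (difference 1.94 ± 0.42, limma adjusted p = 0.0841). Both were without overlap, and Mrpl13 had more than 1 log2 unit between the groups. Mrps26, a small subunit protein found only in mitochondria, was at 9.74, 9.60 and 10.13 in iCM-Ex, against 7.76, 8.18 and 8.39 in saline (difference 1.71 ± 0.39, limma adjusted p = 0.0956). Mrpl20, Mrpl52 and Mrps21 were higher by 1.55, 1.85 and 1.81, with limma adjusted p-values of 0.249, 0.225 and 0.252. In these last 3 genes iCM-Ex replicate 1 was the lowest of its group. Mrpl52, for example, was at 7.47, 9.70 and 10.20 in iCM-Ex, against 6.93, 6.81 and 8.06 in saline, and its groups overlapped.

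The largest decrease was that of Mrps2, a small subunit protein with a bacterial counterpart. It was at 7.65, 7.97 and 7.24 in iCM-Ex, against 10.18, 9.75 and 8.62 in saline, without overlap, and differed by −1.90 ± 0.43 (limma adjusted p = 0.0956). Mrps15, which in bacteria binds the ribosomal RNA early in assembly of the small subunit, was at 5.88, 6.12 and 6.59 in iCM-Ex, against 7.43, 7.07 and 7.36 in saline (difference −1.09 ± 0.41, limma adjusted p = 0.24). Mrps15 was likewise without overlap, with a narrower gap. Mrpl50, Mrpl51, Mrpl39, Mrps35, Mrpl21 and Mrps9 differed by −0.87, −0.84, −0.80, −0.78, −0.75 and −0.58, with limma adjusted p-values of 0.308 to 0.565. Of these only Mrps35 had arrays without overlap.

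Hearts given iCM were then set against the same saline hearts, to see what followed injection of cells. Here the 76 genes went in both directions, with 35 higher means, 41 lower means and a median difference of −0.17, against 0.08 over all genes. Arrays did not overlap for 12 genes that were higher (15.8%, against 13.8% of all genes) and for 19 that were lower (25%, against 10.2%). By limma 2 genes rose (1.34% of all genes did) and 4 fell (2.33% of all genes did), out of 11 higher and 14 lower at an unadjusted p under 0.05 (10.5% and 9.97% of all genes). The median difference was −0.0003 without iCM replicate 1, −0.0792 without iCM replicate 2, −0.36 without iCM replicate 3 and 0.25 on leaving out the 3 arrays with lung, muscle or fat transcripts, which leave replicate 3 as the sole iCM heart. With control separation as a covariate it was 0.06. Limma called 0 of the 76 genes without saline replicate 2 or iCM replicate 2 (0.646% and 1% of all genes in those fits). It called 1 without saline replicate 1 (2.76%) and 2 without saline replicate 3 or iCM-Ex replicate 3 (2.17% and 2.24%). Without iCM replicate 3 or iCM-Ex replicate 2 it called 3 (2.55% and 2.37%). It called 6 without iCM replicate 1 and 7 without iCM-Ex replicate 1 (4.12% and 3.58% of all genes), and none with the covariate (0.169%). The number of higher means was 28 to 38 when any array was left out, 47 without those 3 arrays and 41 with the covariate.

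Mrpl21, a large subunit protein with a bacterial counterpart, was at 7.43, 8.09 and 8.25 in iCM hearts, against 10.29, 10.30 and 9.37 in saline hearts. Every iCM heart was more than 1 log2 unit below every saline heart. It fell by 2.06 ± 0.36 on the log2 scale (7.92 ± 0.43 against 9.99 ± 0.54, SD, n = 3 each; limma adjusted p = 0.0173). The limma adjusted p was 0.0523 on leaving out iCM replicate 2 and 0.0791 on leaving out saline replicate 2, and the call held on leaving out any of the other 7 arrays. Mrps11, a small subunit protein with a bacterial counterpart near the exit path of messenger RNA, was at 8.16, 7.32 and 8.06 in iCM, against 9.42, 9.35 and 9.14 in saline. The saline hearts lay close together, with all iCM hearts below them. It fell by 1.46 ± 0.32 (limma adjusted p = 0.0366). Without saline replicates 1, 2 and 3 its limma adjusted p was 0.0705, 0.115 and 0.0688, without iCM replicates 2 and 3 it was 0.111 and 0.0574, and without iCM-Ex replicate 3 it was 0.0613. With control separation as a covariate the Mrps11 difference was −0.94 (limma adjusted p = 0.352), and under the variance trend its limma adjusted p was 0.0624. Without the 3 arrays with other tissues' transcripts the limma adjusted p was 0.219 for Mrpl21 and 0.3 for Mrps11, and that of Mrpl21 was 0.115 with the covariate.

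Mrps15 was at 5.11, 4.86 and 6.43 in iCM, against 7.43, 7.07 and 7.36 in saline, and had a fitted fall of 1.82 ± 0.41 (limma adjusted p = 0.0392). Its signals in iCM replicates 1 and 2 lay below those arrays' median negative control signals of 5.11 and 5.56, so the gene was above the negative controls in 1 of 3 iCM hearts and the size of its fall is not well measured. iCM replicate 3 lay nearer to saline than the other iCM hearts did, and without the 3 arrays with other tissues' transcripts the difference was −0.86. The limma adjusted p was 0.0805, 0.101 and 0.0905 without saline replicates 1, 2 and 3, 0.085 and 0.127 without iCM replicates 1 and 2, and 0.0648 and 0.0597 without iCM-Ex replicates 2 and 3. Mrps2 was at 7.06, 8.10 and 7.54 in iCM, against 10.18, 9.75 and 8.62 in saline, without overlap, and fell by 1.95 ± 0.43 (limma adjusted p = 0.0387). Its call held without saline replicate 3 (limma adjusted p = 0.0218). The Mrps2 value was 0.0829 and 0.129 without saline replicates 1 and 2, 0.085, 0.0669 and 0.0782 without iCM replicates 1, 2 and 3, and 0.0514, 0.0592 and 0.0605 without iCM-Ex replicates 1, 2 and 3. After quantile normalisation the limma adjusted p was 0.0524 for Mrps15 and 0.0654 for Mrps2. It was 0.339 and 0.15 in the fit with the covariate, and 0.422 and 0.262 without the 3 arrays.

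Mrps26 and Mrps24 rose. Mrps26 was at 9.10, 10.32 and 10.56 in iCM, against 7.76, 8.18 and 8.39 in saline, a rise of 1.88 ± 0.39 (limma adjusted p = 0.0309). Mrps24 was at 6.94, 6.79 and 7.52 in iCM, against 5.70, 5.56 and 5.68 in saline, a rise of 1.44 ± 0.29 (limma adjusted p = 0.0296). In both genes all iCM hearts were above all saline hearts. The limma adjusted p of Mrps26 was 0.0707, 0.0988 and 0.0556 without saline replicates 1, 2 and 3, 0.109 and 0.0741 without iCM replicates 2 and 3, and 0.0519 and 0.0515 without iCM-Ex replicates 2 and 3. That of Mrps24 was 0.0519, 0.103 and 0.0685 without saline replicates 1, 2 and 3, 0.06 and 0.0693 without iCM replicates 2 and 3, and 0.0535 without iCM-Ex replicate 3. For Mrps26 and Mrps24 it was 0.286 and 0.125 in the fit with the covariate, and 0.101 and 0.158 without the 3 arrays with other tissues' transcripts. Both comparisons with saline rest on the same saline hearts, so for Mrps24 and Mrps26 the differences of iCM-Ex and of iCM from saline are not independent.

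Among members that did not pass the threshold, Mrpl34, a very small protein of the large subunit, was at 6.58, 5.83 and 7.24 in iCM, against 8.22, 8.77 and 9.30 in saline, without overlap (difference −2.21 ± 0.54, limma adjusted p = 0.0521). Mrpl30, a large subunit protein with a bacterial counterpart, was at 8.39, 7.39 and 9.45 in iCM, against 10.70, 10.80 and 9.92 in saline (difference −2.06 ± 0.66, limma adjusted p = 0.113). Mrpl34 had a clear gap between the groups, while that of Mrpl30 was narrower. Mrpl45, which in mammals helps attach the ribosome to the inner membrane, differed by −1.46 (limma adjusted p = 0.0966) and Mrps18b by −1.37 (0.0968). On the other side Mrpl22, whose bacterial counterpart lines the peptide exit tunnel, was at 6.54, 7.72 and 7.0 in iCM, against 5.42, 5.78 and 5.37 in saline (difference 1.56 ± 0.40, limma adjusted p = 0.0626). Its groups did not overlap, though its saline signals were near the negative controls. Mrps25, Mrpl28, Mrpl13, Mrpl41 and Mrpl9 were higher by 1.47, 1.25, 1.25, 1.12 and 1.12, with limma adjusted p-values of 0.116 to 0.193, and each without overlap of arrays.

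The comparison of iCM-Ex with iCM set the exosomes against the cells they came from. Of the 76 genes, 60 had a higher mean in iCM-Ex and 16 a lower one, with a median difference of 0.58, against −0.04 over all genes. Arrays did not overlap for 18 genes that were higher (23.7%, against 10.2% of all genes) and 2 that were lower (2.63%, against 10% of all genes). By limma 1 gene rose (0.795% of all genes did) and 0 fell (0.272% of all genes), with 24 higher and 2 lower at an unadjusted p under 0.05 (8.39% and 6.09% of all genes). Limma called 12 of the 76 without iCM-Ex replicate 1 (and 2.06% of all genes in that fit) and 2 without saline replicate 1 (1.5%). It called 1 each without iCM replicate 1 (1.93%) and without saline replicate 3 (1.14%). Leaving out any of the other 5 arrays gave 0 (0 to 0.22% of all genes). The median difference was 0.11 on leaving out the 3 arrays with lung, muscle or fat transcripts and 0.14 when control separation was a covariate. Of the 76 means, 43 and 42 were then higher.

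**Figure D3:**
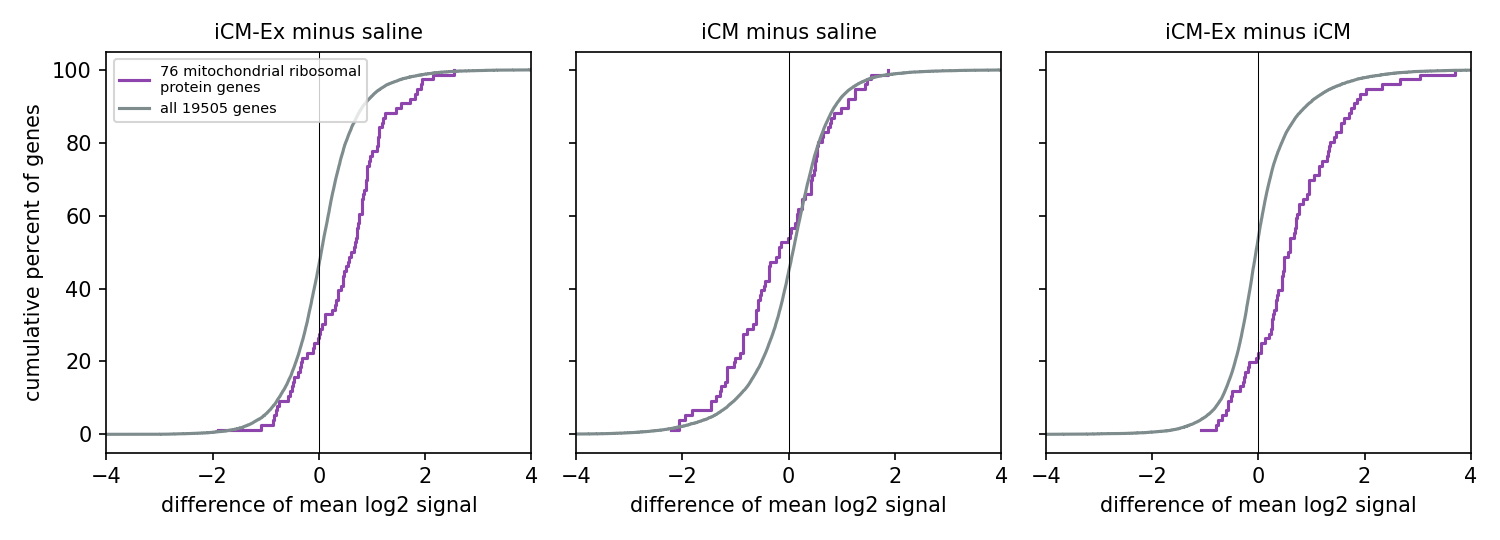
Cumulative percent of genes (vertical axis) by the difference of group mean log2 signals (horizontal axis) in the 3 comparisons, for the 76 mitochondrial ribosomal protein genes and for all 19505 genes. The horizontal axis ends at 4 in either direction. The curve of the 76 genes lies to the right of that of all genes in both comparisons of iCM-Ex (medians 0.63 and 0.58), and for iCM minus saline its lower part lies to the left (lower quartile −0.86, against −0.36 for all genes).

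Mrpl33 was the gene that rose in iCM-Ex relative to iCM. It was at 13.27, 15.45 and 15.62 in iCM-Ex, against 11.67, 10.18 and 11.38 in iCM. The lowest iCM-Ex heart was more than 1 log2 unit above the highest iCM heart. The difference was 3.71 ± 0.65 (14.78 ± 1.31 against 11.08 ± 0.79, SD, n = 3 each), or 13.0-fold (limma adjusted p = 0.0386). The limma adjusted p was 0.0742 without saline replicate 2, 0.121 and 0.0803 without iCM replicates 2 and 3, 0.163 and 0.205 without iCM-Ex replicates 2 and 3, and 0.401 without the 3 arrays with other tissues' transcripts. With control separation as a covariate the Mrpl33 difference was 1.72 (limma adjusted p = 0.828).

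The next largest differences were all in large subunit genes and did not pass the threshold. Mrpl30 was at 9.98, 12.33 and 12.09 in iCM-Ex, against 8.39, 7.39 and 9.45 in iCM, a difference of 3.05 ± 0.66 (limma adjusted p = 0.0617). Mrpl34 was at 8.25, 9.11 and 10.29 in iCM-Ex, against 6.58, 5.83 and 7.24 in iCM (difference 2.67 ± 0.54, limma adjusted p = 0.0502). In both genes the arrays did not overlap, and iCM-Ex replicate 1 was the lowest of its group. The moderated F test gave Mrpl34 an adjusted p of 0.0435. That F test adjusted p was 0.0548, 0.111 and 0.0597 without saline replicates 1, 2 and 3. It was 0.0822, 0.138 and 0.0583 without iCM replicates 1, 2 and 3, and 0.0932 and 0.0873 without iCM-Ex replicates 2 and 3. With control separation as a covariate the F test adjusted p of Mrpl34 was 0.449. Its call was also lost without the 3 arrays with other tissues' transcripts. Mrpl20, Mrpl52, Mrpl23, Mrpl58 and Mrpl42 were higher by 2.33, 2.03, 1.91, 1.86 and 1.80, with limma adjusted p-values of 0.0883 to 0.179. Mrpl58 encodes a peptidyl-tRNA hydrolase that in humans is built into the large subunit. It was at 8.47, 10.41 and 10.58 in iCM-Ex, against 8.05, 7.39 and 8.44 in iCM, so that replicate 1 of iCM-Ex barely cleared the highest iCM heart. The 8 largest decreases were those of Mrps9, Mrps25, Mrpl22, Mrpl28, Mrps31, Mrpl9, Mrpl2 and Mrpl44, which differed by −1.07, −0.79, −0.76, −0.68, −0.61, −0.57, −0.57 and −0.52, with limma adjusted p-values of 0.268 to 0.591. Arrays did not overlap for Mrps31 and Mrpl9. Mrps31, a small subunit protein, was at 10.07, 10.21 and 10.22 in iCM-Ex, against 10.75, 10.70 and 10.88 in iCM.

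**Figure D4:**
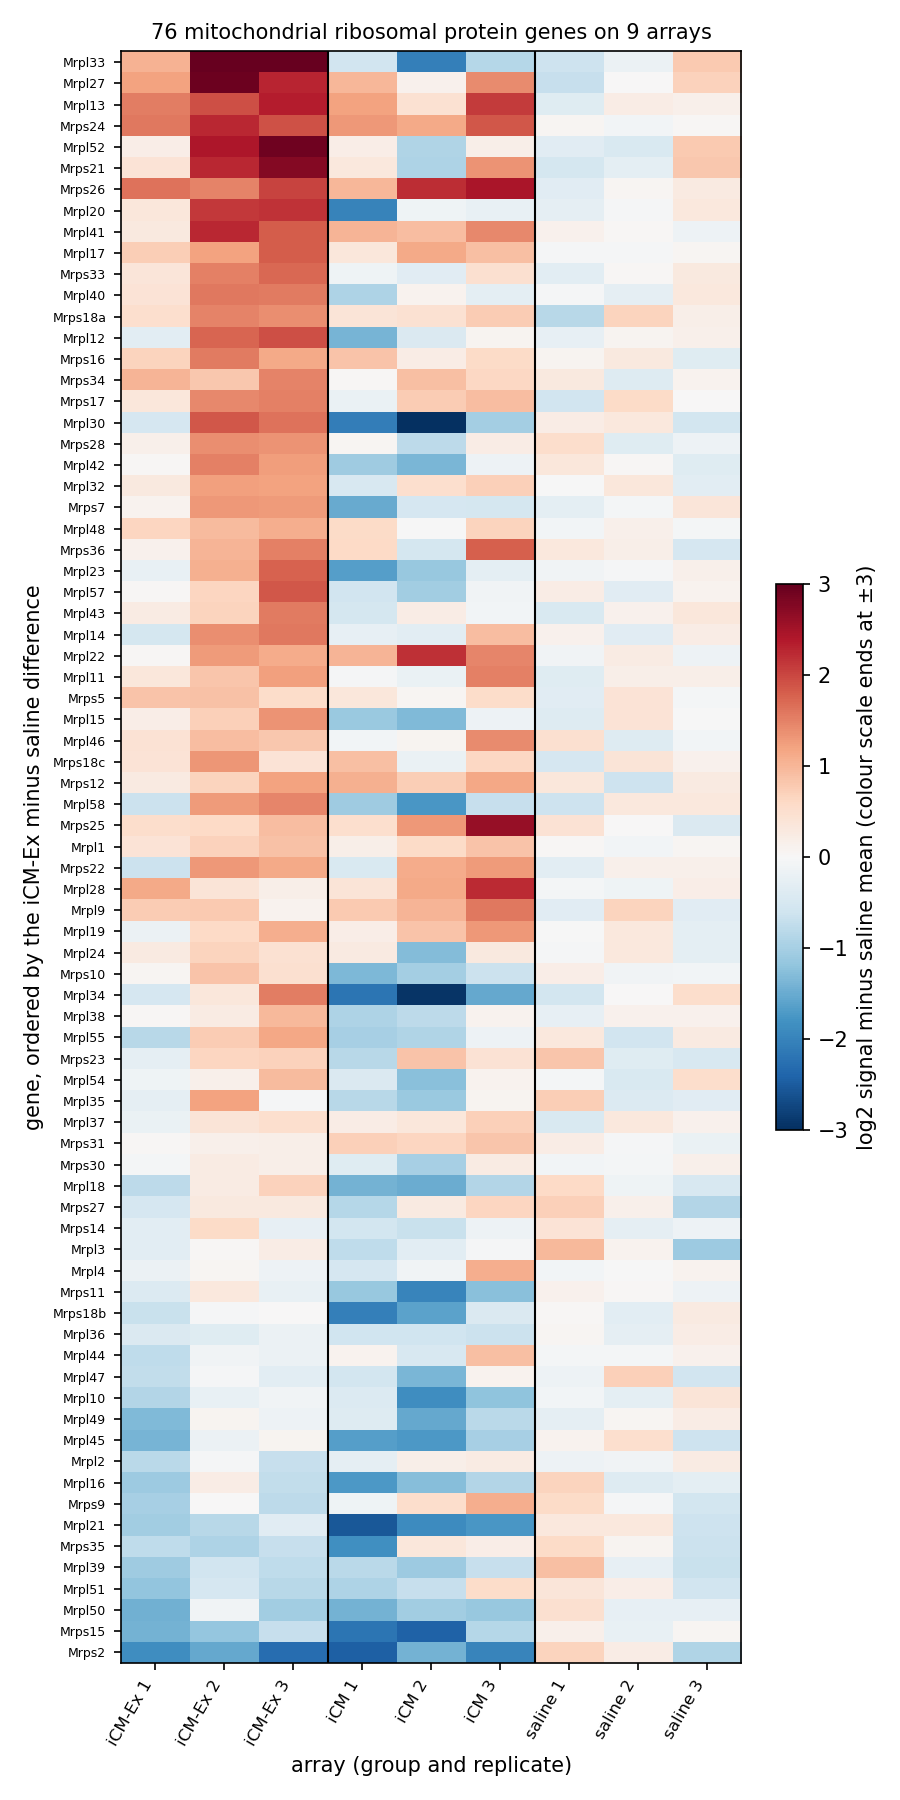
Log2 signal of each of the 76 genes (rows, ordered by the iCM-Ex minus saline difference) on the 9 arrays (columns) minus the gene's saline mean, with a colour scale that ends at 3 in either direction. iCM-Ex replicates 2 and 3 are higher than iCM-Ex replicate 1 in most rows, and the rows at both ends, from Mrpl33 (2.54) to Mrps2 (−1.90), differ from saline in opposite directions.

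Set side by side by subunit, the 50 large subunit genes had a median difference of 0.56 and the 25 small subunit genes one of 0.68 for iCM-Ex minus saline. For iCM minus saline the medians were −0.37 and 0.25, and 19 of 50 and 15 of 25 means were higher. For iCM-Ex minus iCM they were 0.70 and 0.46. Genes with a bacterial counterpart, 45 in number, and the 30 without one had medians of 0.66 and 0.51 for iCM-Ex minus saline, −0.25 and −0.15 for iCM minus saline, and 0.70 and 0.46 for iCM-Ex minus iCM. No test was made of these differences between classes. Mrps36 was at 9.03, 9.92 and 10.42 in iCM-Ex, 9.51, 8.38 and 10.70 in iCM and 9.23, 9.08 and 8.40 in saline, with overlap between all groups. Spread within a group had a median SD over the 76 genes of 0.53 in iCM-Ex, 0.59 in iCM and 0.35 in saline. The smallest F statistics belonged to Mrps27, Mrpl4, Mrps23 and Mrpl3 (F test adjusted p of 0.835 to 0.999). Mrps27, which in mammals is an RNA-binding protein of the small subunit, was at 6.88, 7.66 and 7.67 in iCM-Ex, 6.52, 7.64 and 8.03 in iCM and 8.10, 7.54 and 6.5 in saline.

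Other genes of the pathway were taken from lists by function. Of 4 measured mitochondrial ribosomal proteins with other symbols, Chchd1, a small subunit protein, rose in iCM-Ex (0.22% of all genes did). It was at 8.63, 9.65 and 9.51 in iCM-Ex, against 6.69, 7.15 and 7.35 in saline, without overlap, and rose by 2.20 ± 0.34 (limma adjusted p = 0.0374). Its limma adjusted p was 0.0989 and 0.182 without saline replicates 1 and 2, 0.0506, 0.0592 and 0.0541 without iCM replicates 1, 2 and 3, and 0.106 and 0.204 without iCM-Ex replicates 2 and 3. It was 0.0547 under the variance trend, 0.0928 in the fit with the covariate and 0.073 with the replicate block. Without the 3 arrays with other tissues' transcripts the Chchd1 call was lost, and its difference was 2.07. Dap3, a GTP-binding small subunit protein, differed by −1.65 in iCM relative to saline (limma adjusted p = 0.0789). Ptcd3 and Gadd45gip1 differed from saline by at most 0.42 in either direction in either treated group.

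Of 24 factors of mitochondrial ribosome assembly, 0 rose and 1 fell in iCM-Ex relative to saline (0.22% and 0.128% of all genes). In iCM relative to saline 0 rose and 2 fell (1.34% and 2.33% of all genes). At an unadjusted p under 0.05 by limma, 1 was higher and 2 lower in iCM-Ex (8.33% and 6.91% of all genes). In iCM these counts were 0 and 5 (10.5% and 9.97% of all genes). Eral1, a GTPase that guards the RNA of the small subunit during assembly, fell in both comparisons. It was at 6.58, 6.92 and 6.95 in iCM-Ex and at 6.25, 6.80 and 6.82 in iCM, against 8.56, 8.26 and 8.36 in saline, more than 1 log2 unit apart. It fell by 1.58 ± 0.27 in iCM-Ex (limma adjusted p = 0.0481) and fell by 1.77 ± 0.27 in iCM (limma adjusted p = 0.0116). The iCM call held on leaving out any of the 9 arrays, and was lost without the 3 arrays with other tissues' transcripts (limma adjusted p = 0.182) and in the fit that held control separation as a covariate (limma adjusted p = 0.1). The iCM-Ex call was lost on leaving out any of them, at limma adjusted p-values of 0.107, 0.183 and 0.0618 for saline replicates 1 to 3, 0.0523, 0.0656 and 0.0648 for iCM replicates 1 to 3 and 0.0911, 0.117 and 0.221 for iCM-Ex replicates 1 to 3. It was also lost after quantile normalisation (0.0709), with the filter at the negative controls (0.0557) and under the variance trend (0.0869). Nor did the iCM-Ex call hold in the fit with the covariate (0.112), with the replicate block (0.1) or without the 3 arrays. Mpv17l2, a membrane protein needed for ribosome assembly, was at 6.65, 6.71 and 7.49 in iCM, against 8.16, 8.89 and 9.23 in saline, and fell by 1.81 ± 0.39 (limma adjusted p = 0.0368). The Mpv17l2 value was 0.12 and 0.0951 without saline replicates 2 and 3, 0.0776 and 0.117 without iCM replicates 1 and 2, and 0.0596 without iCM-Ex replicate 2. It was 0.324 in the fit with the covariate and 0.383 without the 3 arrays.

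Of 16 translation factors and related proteins, 1 fell in iCM relative to saline (2.33% of all genes) and 0 in iCM-Ex (0.128%). In iCM-Ex 2 were higher and 2 lower at an unadjusted p under 0.05 by limma (8.33% and 6.91% of all genes). Oxa1l, which inserts newly made proteins into the inner membrane, was at 11.19, 9.36 and 11.10 in iCM, against 13.12, 13.64 and 12.98 in saline. It fell by 2.70 ± 0.50 (limma adjusted p = 0.0214, and 0.091 without saline replicate 2, the only single array whose removal ended the call). With the replicate block the limma adjusted p of Oxa1l was 0.0552. With control separation as a covariate its difference was −1.63 (limma adjusted p = 0.221), and without the 3 arrays its limma adjusted p was 0.186. Of 12 genes of mitochondrial DNA upkeep and transcription, Tfam, which packages mitochondrial DNA and starts its transcription, rose in iCM (1.34% of all genes did). It was at 7.11, 8.43 and 8.18 in iCM, against 6.12, 6.57 and 6.13 in saline, and rose by 1.63 ± 0.37 (limma adjusted p = 0.0413). That value was 0.0832, 0.0973 and 0.0995 without saline replicates 1 to 3, 0.134 and 0.094 without iCM replicates 2 and 3, and 0.0514, 0.0596 and 0.0696 without iCM-Ex replicates 1 to 3. It was 0.0521 under the variance trend, 0.329 in the fit with the covariate and 0.166 without the 3 arrays. Of 12 genes of import and proteases, 9 had a lower and 3 a higher mean in iCM-Ex than in saline (median difference −1.03). In iCM 10 were lower and 2 higher (median −0.85). At an unadjusted p under 0.05 by limma, 5 were lower and 1 higher in iCM-Ex (6.91% and 8.33% of all genes). In iCM these counts were 5 and 0 (9.97% and 10.5% of all genes). Clpp, the catalytic subunit of a matrix protease, fell in iCM (2.33% of all genes did). It was at 8.93, 7.45 and 9.40 in iCM, against 11.43, 10.72 and 10.75 in saline, and fell by 2.37 ± 0.52 (limma adjusted p = 0.0371). Its call was lost without saline replicates 1 to 3 (0.0836, 0.0992 and 0.0714), without iCM replicates 1 and 2 (0.0503 and 0.0933) and without iCM-Ex replicates 2 and 3 (0.0575 and 0.0594). With the replicate block the limma adjusted p of Clpp was 0.0705. Without the 3 arrays with other tissues' transcripts the Clpp difference was −1.57 (limma adjusted p = 0.326), and in the fit with the covariate it was −1.48 (limma adjusted p = 0.363).

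By limma 0 of 16 mitochondrial tRNA synthetases and 0 of 9 regulators of mitochondrial biogenesis passed the threshold in any comparison. At an unadjusted p under 0.05 in iCM-Ex against saline, 1 synthetase was higher and 1 lower, and 2 regulators were higher and 4 lower. Of all genes, 8.33% were higher and 6.91% lower. In iCM against saline the counts were 2 and 2 for synthetases and 0 and 0 for regulators (10.5% and 9.97% of all genes). Iars2 and Vars2, which charge mitochondrial tRNAs with isoleucine and valine, had the smallest F test p-values of the synthetases (adjusted 0.0676 and 0.182). Among the regulators these were Gabpa and Nrf1 (adjusted 0.0926 and 0.0951), whose binding letters are among those searched above. Nrf1 was at 7.39, 7.30 and 6.93 in iCM-Ex, 8.70, 9.25 and 7.93 in iCM and 8.82, 8.10 and 8.15 in saline, lowest in iCM-Ex without overlap with either group. Gabpa was at 11.28, 11.32 and 10.73 in iCM-Ex, 12.50, 12.14 and 12.27 in iCM and 11.63, 12.02 and 11.33 in saline, with iCM-Ex lowest but with values close to the lowest saline heart. Genes encoded in mitochondrial DNA, whose products these ribosomes make, were not analysed here.

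In the lists most like the 76 genes, 15 of 57 cytosolic ribosomal protein genes rose and 0 fell in iCM-Ex relative to saline (median difference 1.94). Of 85 genes of the respiratory chain and ATP synthase, 1 rose and 0 fell (median 0.85), against 0.22% and 0.128% of all genes. At an unadjusted p under 0.05 by limma, 50 and 26 were higher and 0 of either list lower (8.33% and 6.91% of all genes). In iCM relative to saline the medians were 0.38 and 0.21. For iCM-Ex minus iCM they were 1.62 and 0.64, with 98.2% and 74.1% of means higher (46.1% of all genes). There 15 cytosolic genes rose and 0 fell, and 2 respiratory chain genes rose and 1 fell (0.795% and 0.272% of all genes). No test was made of a difference between these lists and the 76 genes.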

How the data were processed

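The authors deposited a log2 signal for each probe set on each array, and the submitters' processing notes name Affymetrix Expression Console. For its version, background correction and normalisation, nothing is given in the sources used here. The range of 2.25 to 19.93 is that of a log2 scale. Per the labels' protocols, total RNA gave 5.5 µg of cDNA per sample. Of 28846 rows, 6640 were controls and 19572 had 1 gene symbol in the platform annotation (2634 had none). The brightest of several rows was kept for 55 genes, which left 19505. All 76 members matched RefSeq by Entrez identifier. The number of arrays limits precision, and an exact permutation test of 3 against 3 arrays cannot give a p below 0.1.

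All 9 arrays entered 1 limma fit (version 3.58.1, R 4.3.3) with a mean per group and moderated variances (6 residual and 4.23 prior degrees of freedom), two-sided, with Benjamini-Hochberg adjustment over all genes. The fit was tested on simulated data. Values after ± are moderated SE for differences and SD for levels. A cell or exosome dose was not used.

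The members, lists and alternatives were chosen with earlier results of these data known. Named members were those past the threshold, and the 8 largest rises and falls per comparison, with values in every array for those the results turn on and the difference alone for the others. The rule also asked for the 5 highest and lowest signals, not given because signals of different probe sets are not comparable. Lists gave the genes past the threshold, or the 2 with the smallest F test p. Alternatives were quantile normalisation, median centring, a filter at the negative controls, other rows, a variance trend, control separation as a covariate, a replicate block, and left-out arrays.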

Additional observations from a re-analysis of the deposited data

How the results depend on the processing

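Each member had 1 row, so the mean of a gene's rows or all rows but controls left the members' own values unchanged. The counts of members past the threshold were then the same as in the main fit, which is no check of those values. For iCM-Ex minus saline the main count was 1, with 0 under the variance trend, the covariate, the replicate block and on leaving out the 3 arrays with other tissues' transcripts, and 0 to 3 on leaving out an array. For iCM minus saline it was 6, with 0 under the covariate and without those 3 arrays, and 0 to 7 on leaving out an array. For iCM-Ex minus iCM it was 1, with 2 under quantile normalisation and the variance trend, 3 under median centring and the filter at the negative controls, 0 under the covariate, the block and without those 3 arrays, and 0 to 12 on leaving out an array. For the F test it was 7, with 4 under the variance trend, 1 under the covariate and the block, 0 without those 3 arrays, and 0 to 16 on leaving out an array. Of all genes, 1.07% were called for iCM-Ex minus iCM in the main fit and 0.815% under the variance trend. The share was 1.53% under quantile normalisation, 1.68% under median centring and 2.95% under the filter at the negative controls. Over all genes limma called 68, 716 and 208 in the 3 comparisons and 647 in the F test. These were 5, 33, 0 and 74 with the covariate, 0, 338, 18 and 205 with the block, 17, 633, 159 and 515 with the variance trend, and 0, 6, 0 and 0 without those 3 arrays. On leaving out 1 array they were 0 to 163, 126 to 803, 0 to 401 and 43 to 723. The cause was not tested.

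Medians moved by more than the spread between arrays (0.36) without those 3 arrays for iCM minus saline (0.25) and iCM-Ex minus iCM (0.11), and under the covariate for iCM-Ex minus iCM (0.14). On leaving out an array they were 0.45 to 0.86 for iCM-Ex minus saline, −0.36 to −0.0003 for iCM minus saline and 0.41 to 0.85 for iCM-Ex minus iCM. No called member changed sign under any alternative run.

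Replicate numbers recur across groups, and the sample titles do not say whether same-numbered arrays were processed together. Such arrays of different groups correlated at −0.26 to 0.07 in their deviations from group means, and others at −0.16 to 0.25. Deviations within a group of 3 constrain each other, so these values cannot decide whether same-numbered arrays share more than a number. With the replicate block the counts were 0, 4, 0 and 1 for iCM-Ex minus saline, iCM minus saline, iCM-Ex minus iCM and the F test. Groups of 3 arrays are too small for a test of single outlying arrays, and signals near the negative controls limit Mrpl10, Mrpl22, Mrpl36, Mrpl43, Mrpl54, Mrps15, Mrps24 and Mrps35.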
